A study of Mus musculus with 16 samples.

Results

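The genes described here are 34 members of glycolysis and the hypoxia response, read in macrophage-dendritic cell progenitors (MDPs) and common dendritic cell progenitors (CDPs) of mouse bone marrow. They were chosen by name from textbook roles: 19 enzymes that carry glucose to lactate, and 15 carriers, regulators and hypoxia-response genes. Every member had at least 1 probe on the array, among 28631 gene symbols in all, and a gene's value was that of its brightest probe (highest mean over all arrays). The 34 genes had 60 probes between them, 19 genes having 1 probe and 15 several, and all 34 were bright enough to be tested.

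The study asked how mammary tumors alter the bone marrow progenitors of dendritic cells. Young adult female C57/Bl6 mice carried PyMT-B6 tumors (a cell line from the MMTV-PyMT mammary tumor model on this background) grown in the mammary fat to 1.5 cm in diameter, and age-matched mice without tumors served as controls. Bone marrow was depleted of lineage-positive cells and MDPs and CDPs were sorted, giving tumor-free MDPs, tumor-bearing MDPs, tumor-free CDPs and tumor-bearing CDPs with 4 samples each, numbered replicates 2 to 5. The 4 samples of a group came from independent experiments, each with pooled mice. All tumor-bearing groups rest on 1 transplanted cell line.

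Glycolysis splits glucose into pyruvate in the cytosol and yields ATP without oxygen. Lactate dehydrogenase turns pyruvate into lactate, which monocarboxylate carriers take out of the cell, while pyruvate dehydrogenase kinases inhibit pyruvate dehydrogenase. When oxygen falls, prolyl hydroxylases no longer mark the HIF alpha subunits for destruction, and HIF binds DNA at a short core (ACGTG or GCGTG) near many of these genes. Bone marrow is a poorly oxygenated tissue.

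RNA was hybridised to 1-colour Agilent mouse arrays, and a level below is the log2 signal minus the 75th percentile of log2 signal on the same array, so levels of different probes are not comparable with each other. Between 58.8% and 71.5% of probes were well above background on an array, and arrays of 1 group correlated at r = 0.904 to 0.977. The number of arrays, 4 a group, limits the precision. The 16 arrays lay on 4 slides, and the 4 arrays of slide 1 (replicate 3 of the tumor-free MDPs, replicates 2 and 4 of the tumor-bearing MDPs and replicate 5 of the tumor-free CDPs) stood apart, with a median over all tested probes of -0.26 to -0.18 (log2, centred on each probe's mean) against -0.01 to 0.16 on the other 12. Slide numbers, which accounted for a median of 48.6% of the spread of a probe over the 16 arrays, accounted for a median of 32.5% for the members, and the 4 groups for 30.5% and 42.4%. Values from a fit with slide as a block, and without slide 1, are given where they change the call of a member's brightest probe. Shifts across the p threshold alone, or by over 1.5 times, are given for some members only. Kit, the receptor used to tell MDPs from CDPs, was lower in CDPs than MDPs by 2.59 (log2) in tumor-free mice, and Cd34, Flt3 and Csf1r were well above background on all arrays.

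Promoter sequence is shown for 4 members that differed between MDPs and CDPs in both kinds of mice, because HIF binding is the control the list is named for and the pair that was higher in CDPs can be read against the pair that was lower. The bases are the 250 before the annotated start in RefSeq (GRCm38.p6), written 5′ to 3′ on the gene's strand, with the HIF cores ACGTG and GCGTG on either strand in capitals. Slc16a3, the lactate exporter MCT4, lies on the plus strand at chr11:120948817-120949066 and Pfkfb4, a bifunctional kinase and phosphatase of fructose 2,6-bisphosphate, on the plus strand at chr9:108991652-108991901. Pdk1, which inhibits pyruvate dehydrogenase, lies on the plus strand at chr2:71872974-71873223 and Egln3, a HIF prolyl hydroxylase, on the minus strand at chr12:54203875-54204124.
Slc16a3: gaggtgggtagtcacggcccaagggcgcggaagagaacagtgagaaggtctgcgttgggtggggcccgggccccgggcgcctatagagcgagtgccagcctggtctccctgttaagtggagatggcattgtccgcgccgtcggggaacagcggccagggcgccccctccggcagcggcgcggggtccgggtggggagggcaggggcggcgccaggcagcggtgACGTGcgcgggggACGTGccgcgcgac
Pfkfb4: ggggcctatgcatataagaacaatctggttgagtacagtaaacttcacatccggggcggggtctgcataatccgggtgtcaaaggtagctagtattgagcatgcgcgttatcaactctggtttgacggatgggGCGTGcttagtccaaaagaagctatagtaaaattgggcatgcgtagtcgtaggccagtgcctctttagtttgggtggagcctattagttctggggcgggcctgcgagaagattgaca
Pdk1: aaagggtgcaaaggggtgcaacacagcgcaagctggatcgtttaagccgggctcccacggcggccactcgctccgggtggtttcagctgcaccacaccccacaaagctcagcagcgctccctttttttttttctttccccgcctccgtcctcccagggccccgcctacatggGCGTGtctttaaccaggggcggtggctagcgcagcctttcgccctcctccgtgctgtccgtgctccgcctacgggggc
Egln3: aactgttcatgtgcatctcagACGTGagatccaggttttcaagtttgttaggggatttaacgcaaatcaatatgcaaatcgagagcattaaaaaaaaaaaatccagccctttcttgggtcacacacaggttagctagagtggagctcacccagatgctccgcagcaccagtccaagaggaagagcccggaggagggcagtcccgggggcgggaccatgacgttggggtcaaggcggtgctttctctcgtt
Each of the 4 held at least 1 core, the pair higher in CDPs and the pair lower in CDPs alike. Another listed window of Pdk1, at a different annotated start, held no core. Of the members, 32 had a promoter window (250 bases before to 50 after the start, 46 windows), and none was listed for Slc2a3 and Ndrg1. A core was found in a window of 29 of the 32 genes (90.6%) and of 46.7% of all 27025 genes with a window. By window, ACGTG was in 54.3% of the members' and 19.6% of all 32851 windows, GCGTG in 56.5% and 32.4%, and the E-box CACGTG, which contains ACGTG on both strands, in 10.9% and 7.15%. The members' windows were also richer in G and C, with a median of 61.7% against 52.7%, and in CpG, which both cores contain, with a median of 20 against 7 a window. These matches describe letters in the reference sequence and show no binding in these cells.

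The members that differed most were read first in the step from MDPs to CDPs (CDP minus MDP). In tumor-free mice 3 members were called higher in CDPs and 6 lower, and in tumor-bearing mice 3 higher and 4 lower, the latter 7 all being among the former 9. A call needed a Benjamini-Hochberg adjusted p (limma, over 27433 tested probes) under 0.05 and more than a 1.5-fold change. Of all tested probes, 2.94% were called higher and 3.16% lower in tumor-free mice, beside 8.82% and 17.6% of the members. In tumor-bearing mice 3.56% of probes were called higher and 3.71% lower, beside 8.82% and 11.8% of the members. These are bulk RNA levels of sorted cells, in which fewer cells of a type and less RNA per cell cannot be told apart.

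**Figure D1:**
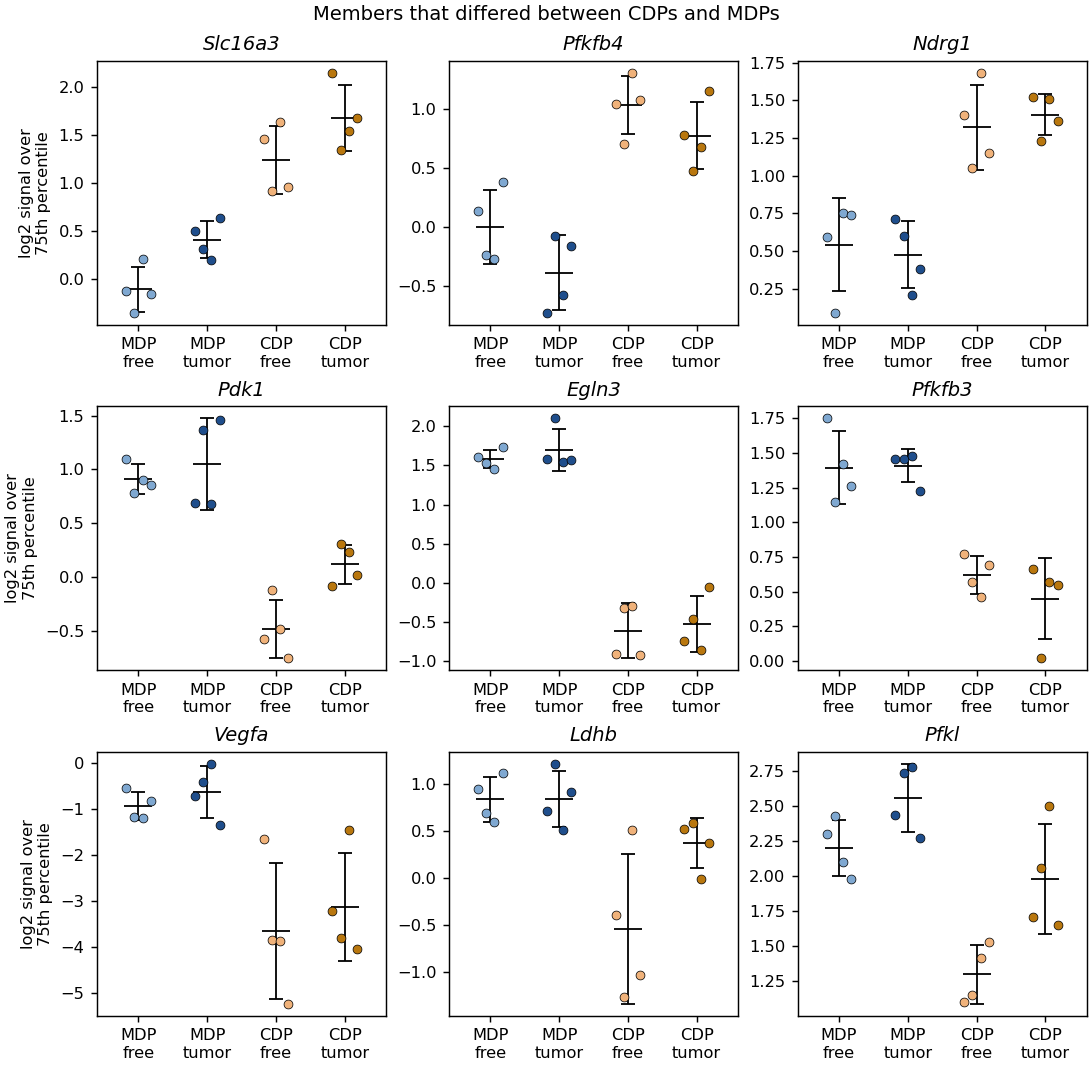
Log2 signal over the array's 75th percentile of the 9 members called between MDPs and CDPs, 1 point per array, with the group mean and SD as bars (n = 4); axes differ between panels. The CDP points of Slc16a3, Pfkfb4 and Ndrg1 lie above the MDP points of the same mice and those of Pdk1, Egln3, Pfkfb3 and Vegfa below, while the tumor-bearing groups overlap for Ldhb and Pfkl.

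Among the carriers, Slc16a3 was higher in CDPs. Its levels in replicates 2 to 5 were -0.12, -0.35, 0.21 and -0.16 in tumor-free MDPs and 1.45, 0.91, 1.63 and 0.96 in tumor-free CDPs. In tumor-bearing mice they were 0.50, 0.31, 0.20 and 0.63 in MDPs and 2.14, 1.34, 1.54 and 1.67 in CDPs. Every CDP sample lay above every MDP sample, a step of 1.34 ± 0.21 (log2, SE; 2.54-fold, limma adjusted p = 0.0016) in tumor-free and 1.26 (2.4-fold, adjusted p = 0.00256) in tumor-bearing mice. The exact permutation test on the 4 against 4 samples gave p = 0.0286 (two-sided) in both, the smallest that design allows. It held on each slide, at 0.70 to 1.76 on the 4 slides in tumor-free and 1.04 and 1.23 on slides 3 and 2 in tumor-bearing mice. A second Slc16a3 probe, overlapping the first by 53 bases, gave 1.21 and 1.44 and was called as well. The glucose carriers Slc2a1 (GLUT1) and Slc2a3 (GLUT3) were not called, with steps of -0.16 and -0.25 in tumor-free and -0.05 and -0.99 in tumor-bearing mice. With slide as a block the tumor-bearing steps were 0.21 and -0.50.

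The pair of enzymes that make and remove fructose 2,6-bisphosphate, the activator of phosphofructokinase, moved in opposite directions. Pfkfb4 was at 0.14, -0.24, -0.27 and 0.38 in tumor-free MDPs and 1.05, 0.71, 1.31 and 1.08 in tumor-free CDPs. In tumor-bearing mice it was at -0.73, -0.08, -0.58 and -0.16 in MDPs and 0.78, 0.48, 0.68 and 1.16 in CDPs. No MDP sample reached a CDP sample of the same mice, a step of 1.03 ± 0.21 (log2, SE; 2.05-fold, limma adjusted p = 0.00927) and of 1.16 (2.24-fold, adjusted p = 0.00458). Without slide 1 the latter was 0.90 and missed the threshold (adjusted p = 0.071).

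Pfkfb3, the isoform whose kinase activity far exceeds its phosphatase activity, was lower in CDPs. Tumor-free MDPs had 1.75, 1.15, 1.42 and 1.26 and tumor-free CDPs 0.77, 0.57, 0.46 and 0.69, while tumor-bearing MDPs had 1.46, 1.46, 1.48 and 1.23 and CDPs 0.66, 0.02, 0.57 and 0.55. The groups did not overlap, and the step was -0.77 ± 0.17 (log2, SE; 1.71-fold lower, limma adjusted p = 0.0139) and -0.96 (1.94-fold lower, adjusted p = 0.00374). Without replicate 2 of the tumor-free MDPs the former was -0.65 and missed the threshold (adjusted p = 0.0511). Second probes gave the same directions and were called, at 1.31 and 1.30 for Pfkfb4 and -1.08 and -0.87 for Pfkfb3.

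Pdk1, the pyruvate dehydrogenase kinase named above, was lower in CDPs as well. It was at 1.1, 0.78, 0.90 and 0.86 in tumor-free MDPs and -0.57, -0.12, -0.48 and -0.75 in tumor-free CDPs, and at 0.69, 1.37, 0.68 and 1.46 in tumor-bearing MDPs and -0.08, 0.31, 0.23 and 0.02 in tumor-bearing CDPs. The lowest MDP sample was above the highest CDP sample in both kinds of mice. The step was -1.39 ± 0.20 (log2, SE; 2.62-fold lower, limma adjusted p = 0.000974) in tumor-free and -0.93 (1.91-fold lower, adjusted p = 0.0126) in tumor-bearing mice. The tumor-bearing step missed the threshold with only the groups compared in the fit (adjusted p = 0.0861) and by the methods' t-test after adjustment (0.108), and the difference between the steps, 0.46 with a 95% interval of -0.16 to 1.07, was not called. Pdk3, another kinase of the same enzyme, was not called, at -0.37 and -0.70, the latter being -0.25 with slide as a block.

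Of the oxygen-sensing genes, Egln3 had the largest share of its spread between groups, 95.1%. Its levels were 1.61, 1.53, 1.46 and 1.73 in tumor-free MDPs, 1.58, 2.10, 1.55 and 1.57 in tumor-bearing MDPs, -0.91, -0.32, -0.30 and -0.92 in tumor-free CDPs and -0.74, -0.46, -0.86 and -0.05 in tumor-bearing CDPs. All 8 MDP samples were above all 8 CDP samples by at least a log2 unit. The step was -2.19 ± 0.21 (log2, SE; 4.57-fold lower, limma adjusted p = 3.39e-05) in tumor-free and -2.23 (4.69-fold lower, adjusted p = 2.74e-05) in tumor-bearing mice, and within slides it ran from -2.64 to -1.78 and from -2.96 to -1.62. A second probe gave -3.72 and -2.89, both called. Egln1, the other prolyl hydroxylase of the list, and Hif1a, the regulated HIF subunit, were not called, with Egln1 at -0.13 and -0.40 and Hif1a at 0.13 and 0.08.

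Of the 5 HIF target genes, Ndrg1 was higher and Vegfa lower in CDPs. Ndrg1, a stress-response gene linked to differentiation, was at 0.59, 0.09, 0.75 and 0.74 in tumor-free MDPs, 1.40, 1.05, 1.68 and 1.15 in tumor-free CDPs, 0.71, 0.60, 0.21 and 0.38 in tumor-bearing MDPs and 1.52, 1.23, 1.51 and 1.36 in tumor-bearing CDPs. The CDP samples were above the MDP samples in both, with a step of 0.78 ± 0.19 (log2, SE; 1.71-fold, limma adjusted p = 0.0224) in tumor-free and 0.93 (1.91-fold, adjusted p = 0.00821) in tumor-bearing mice. The former missed the threshold in 4 of 8 fits that left out 1 library, those without replicates 2 or 3 of the tumor-free MDPs or 2 or 4 of the tumor-free CDPs, at adjusted p = 0.0542 to 0.0766.

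Vegfa, the angiogenic growth factor, had the widest spread. It was at -0.55, -1.18, -1.20 and -0.82 in tumor-free MDPs and -1.66, -3.86, -3.87 and -5.24 in tumor-free CDPs, and at -0.72, -0.42, -0.02 and -1.36 in tumor-bearing MDPs and -3.22, -3.81, -1.45 and -4.06 in tumor-bearing CDPs. CDP samples were below MDP samples throughout, but spanned over 2 log2 units in each group. The step of -2.72 ± 0.66 (log2, SE; limma adjusted p = 0.023) in tumor-free mice missed the threshold in 5 of 8 fits that left out 1 library, those without replicates 2 or 5 of the MDPs or 3, 4 or 5 of the CDPs. The step of -2.50 (adjusted p = 0.0334) in tumor-bearing mice did so in 6 of 8, those without replicates 2, 3 or 4 of the MDPs or 2, 3 or 5 of the CDPs, with adjusted p up to 0.1. Without slide 1 neither passed (adjusted p = 0.102 and 0.155), with slide as a block the latter did not (adjusted p = 0.0772), and a second probe, at -1.49 and -0.79, was not called. The mitophagy gene Bnip3, Ankrd37 and the collagen prolyl hydroxylase subunit P4ha1 were not called. Their steps were 0.29, 0.69 and 0.10 in tumor-free and -0.29, 0.47 and -0.45 in tumor-bearing mice.

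Between MDPs and CDPs 2 of the 19 enzymes were called, both in tumor-free mice. There 5 of 19 were higher in CDPs, with a median step of -0.19 beside 0.02 over all probes, and Pfkl and Ldhb were called lower. In tumor-bearing mice none was called, although Pfkl, Hk3 and Aldoc had an unadjusted p under 0.05, and 12 of 19 were higher with a median of 0.12 beside 0.19 over all probes, which became 6 of 19 and -0.11 after quantile normalisation and 8 of 19 and -0.14 with slide as a block.

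**Figure D2:**
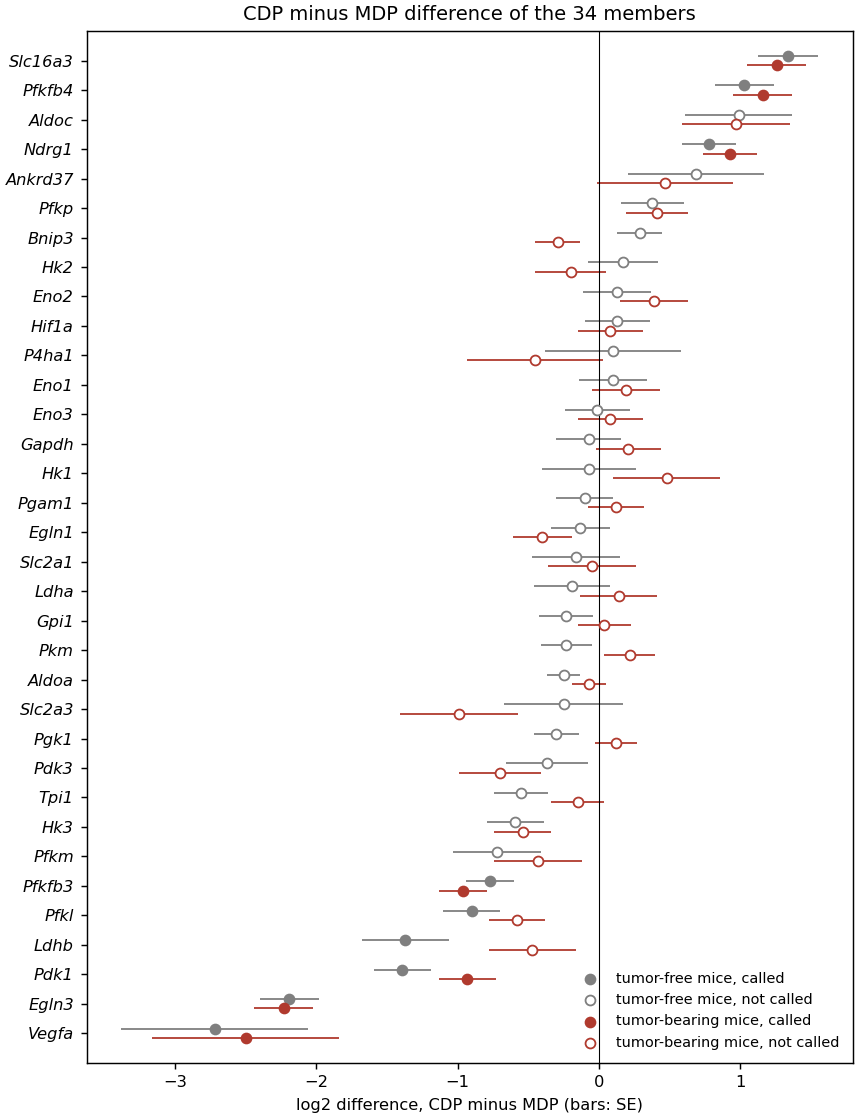
Log2 difference CDP minus MDP of each of the 34 members in tumor-free (grey) and tumor-bearing (red) mice, with SE from the limma fit as bars (n = 4 samples a group), ordered by the tumor-free step. Filled points passed the call: Slc16a3, Pfkfb4 and Ndrg1 at the top and Pfkfb3, Pdk1, Egln3 and Vegfa at the bottom in both kinds of mice, Pfkl and Ldhb in tumor-free mice.

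Pfkl, the liver-type phosphofructokinase subunit at the committed step, was at 2.30, 2.43, 2.10 and 1.98 in tumor-free MDPs and 1.1, 1.15, 1.42 and 1.53 in tumor-free CDPs. It was at 2.44, 2.74, 2.78 and 2.27 in tumor-bearing MDPs and 1.71, 2.06, 2.50 and 1.65 in tumor-bearing CDPs. The tumor-free groups were apart and the tumor-bearing ones overlapped. The tumor-free step of -0.90 ± 0.20 (log2, SE; 1.87-fold lower, limma adjusted p = 0.0146) was -0.95 to -0.88 on each of the 4 slides and missed the threshold only without replicate 2 of the tumor-free CDPs among the 8 fits that left out 1 library (adjusted p = 0.0515). The tumor-bearing step was -0.58 (adjusted p = 0.0953), and the steps differed by 0.33 with a 95% interval of -0.28 to 0.93.

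Ldhb, the lactate dehydrogenase subunit that predominates in heart, was at 0.94, 0.69, 0.59 and 1.11 in tumor-free MDPs and -0.39, -1.26, 0.51 and -1.03 in tumor-free CDPs. It was at 0.71, 1.21, 0.51 and 0.91 in tumor-bearing MDPs and 0.52, 0.58, -0.01 and 0.37 in tumor-bearing CDPs. The tumor-free CDPs spread widely and replicate 4 came close to the MDPs. The tumor-free step was -1.37 ± 0.31 (log2, SE; 2.59-fold lower, limma adjusted p = 0.0169) and missed the threshold without replicates 2 or 5 of the MDPs or 3 of the CDPs and without slide 1 (adjusted p = 0.077). The tumor-bearing step was -0.47 (adjusted p = 0.295), and the steps differed by 0.90 with a 95% interval of -0.05 to 1.85.

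The other enzymes were not called in either step. Hk3, the myeloid hexokinase, had steps of -0.59 and -0.54 and was called lower in both without slide 1 and in both with slide as a block. In tumor-free mice Aldoc (0.99 without the block, limma adjusted p = 0.160) was called higher with the block, and Pfkm (-0.72, adjusted p = 0.241) lower. With that block 10.7% of all probes were called in the tumor-free and 6.31% in the tumor-bearing step. For Pfkp, the platelet-type phosphofructokinase subunit, probes disagreed: the brightest gave 0.38 and 0.41 and was not called, while the second gave -0.90 and -0.66, called lower in tumor-free mice (adjusted p = 0.0181). The listed mm9 chromosome of the brightest Hk1, Gapdh and Eno1 probes is not that of the gene in RefSeq, nor is that of any other Gapdh probe, the dimmest Gpi1 probe or the second Pkm probe, so signal from related copies cannot be told apart from the gene's there, and their values are uncertain. Hk1, the widely expressed hexokinase, had 2 dimmer probes that gave -0.31 and -0.42 in the tumor-free and -0.36 and -0.39 in the tumor-bearing step, where the brightest, which lacked a value on 2 arrays, gave 0.48. The 9 probes listed as Gapdh, the dehydrogenase that makes the pathway's NADH, gave steps of -0.36 to 0.10 and -0.15 to 0.38, none called. For the isomerase Gpi1 the brightest probe gave 0.04 in the tumor-bearing step and the others -0.21 and -0.27, the latter from the probe listed on another chromosome.

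In CDPs of tumor-bearing mice none of the 34 members was called by its brightest probe against tumor-free CDPs, where 1.8% of all probes (494 of 27433) were called, although 22 members (64.7%, beside 57.6% of all probes) were higher and 7 had an unadjusted p under 0.05 (limma), 20.6% beside 13.7% of all probes. Their changes ran from -0.46 to 0.91 (log2) with a median of 0.26, beside 0.08 over all probes. All tumor-bearing CDP samples lay above all tumor-free ones for 7 members (Pfkl, Aldoa, Tpi1, Pgk1 with 3 tumor-free samples, Pkm, Ldha and Pdk1), 20.6%, beside 5.73% of all probes. For Hk3 alone they lay below, and the share of all probes in that direction was not counted. With slide as a block 2 members, Pfkl and Pgk1, were called higher, 5.88%, beside 2.18% of all probes.

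**Figure D3:**
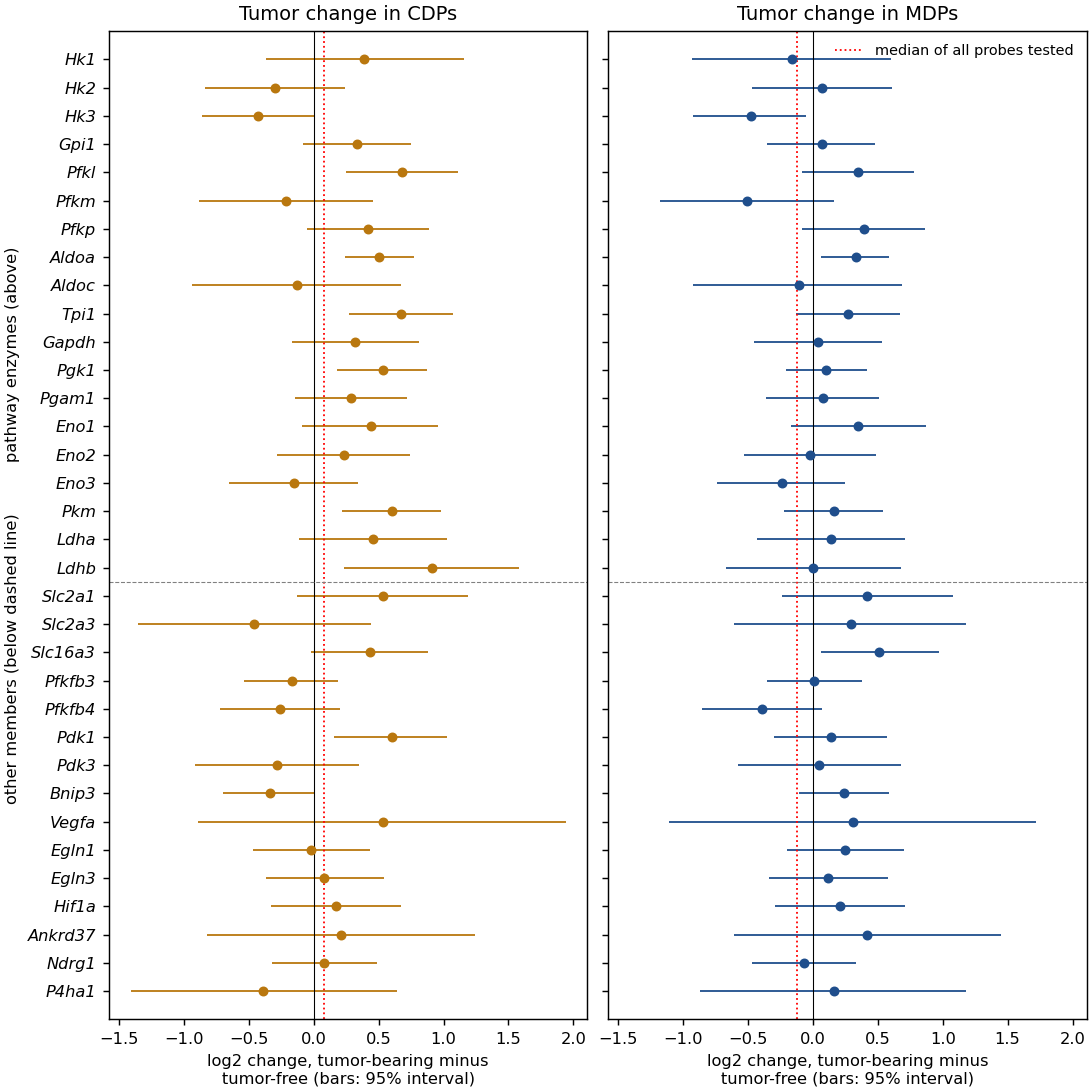
Log2 change in tumor-bearing against tumor-free mice of each of the 34 members in CDPs (left) and in MDPs (right), with 95% intervals from the limma fit as bars; the red dotted line is the median of all tested probes (0.08 in CDPs, -0.12 in MDPs). Of the 19 enzymes above the dashed line 14 lie above 0 in CDPs and 13 in MDPs, and no member passed the call in either cell type.

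By role, of the 19 enzymes 14 were higher in tumor-bearing CDPs with a median of 0.39, and of the 15 others 8 with a median of 0.08. From aldolase to pyruvate kinase 8 of 10 were higher with a median of 0.38, of the phosphofructokinases 2 of 3, of the hexokinases and Gpi1 2 of 4, and both lactate dehydrogenases. The 14 include the uncertain brightest probes of Hk1, Gapdh and Eno1, which are listed on another chromosome. That of Hk1 gave 0.39, while its dimmer probes gave -0.02 and 0.06. With the mean of a gene's probes, 13 of 19 enzymes were higher with a median of 0.4. The enzymes' median was 0.14 to 0.43 over the alternative settings, 0.22 with slide as a block beside -0.05 over all probes, and 0.35, 0.05 and 0.30 within slides 2, 3 and 4, which held both groups.

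Aldoa, the aldolase of most tissues, had the smallest adjusted p. It was at 3.93, 3.87, 4.12 and 4.03 in tumor-free CDPs and 4.48, 4.39, 4.68 and 4.41 in tumor-bearing CDPs, and at 4.18, 4.48, 4.11 and 4.16 in tumor-free MDPs and 4.55, 4.54, 4.60 and 4.55 in tumor-bearing MDPs. The tumor-bearing samples were above the tumor-free ones in both cell types. The change was 0.50 ± 0.12 (log2, SE; 1.42-fold, limma adjusted p = 0.0568, exact permutation p = 0.0286) in CDPs and 0.33 ± 0.12 (1.25-fold, adjusted p = 0.416, exact p = 0.0286) in MDPs. With slide as a block the CDP change was 0.56 and passed the p threshold (adjusted p = 0.0085) but not 1.5-fold, and after quantile normalisation it was 0.20 (adjusted p = 0.802). Within slides it was 0.48 to 0.57 in CDPs and 0.10 to 0.39 in MDPs.

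Tpi1, triosephosphate isomerase, was at 3.26, 3.44, 3.57 and 2.94 in tumor-free and 3.85, 4.05, 4.14 and 3.86 in tumor-bearing CDPs, a change of 0.67 ± 0.19 (log2, SE; 1.59-fold, limma adjusted p = 0.0896). Pkm, pyruvate kinase, was at 3.20, 3.20, 3.48 and 2.89 in tumor-free and 3.65, 3.92, 3.85 and 3.76 in tumor-bearing CDPs, a change of 0.60 ± 0.18 (1.52-fold, adjusted p = 0.111). By their brightest probes the groups were apart for both, and in each the lowest sample was replicate 5 of the tumor-free CDPs, which lay on slide 1. Within slides 2 to 4, which leave that sample out, the changes were 0.51 to 0.60 for Tpi1 and 0.37 to 0.59 for Pkm. With slide as a block they were 0.55 and 0.50, past the p threshold (limma adjusted p = 0.014 and 0.0184) but under 1.5-fold, and after quantile normalisation 0.43 and 0.38. For the second Pkm probe, listed on another chromosome, the groups overlapped. It was at 2.9, 2.98, 3.25 and 3.11 in tumor-free and 3.34, 3.7, 3.84 and 3.18 in tumor-bearing CDPs. In MDPs, Tpi1 was at 3.91, 3.50, 4.07 and 3.95 in tumor-free and 3.77, 4.36, 4.01 and 4.36 in tumor-bearing mice and Pkm at 3.54, 3.13, 3.59 and 3.43 and 3.22, 3.84, 3.43 and 3.83, with overlapping groups.

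Pfkl, with the levels given above, changed by 0.68 ± 0.20 (log2, SE; limma adjusted p = 0.112), and by 0.76 with slide as a block, where it was called (adjusted p = 0.00927). Pgk1, phosphoglycerate kinase, had means of 3.38 ± 0.19 (SD, n = 3, the spot of the remaining sample being an outlier) in tumor-free and 3.91 ± 0.20 (SD, n = 4) in tumor-bearing CDPs. Its change was 0.53 ± 0.16 (SE, limma adjusted p = 0.126), and 0.60 with the block, where it was called (adjusted p = 0.0141). Ldhb at 0.91 (adjusted p = 0.181) and Pdk1 at 0.60 (adjusted p = 0.174) were not called. These 4 changes and the tumor-free steps use the same tumor-free CDP samples, so a low value there gives both a lower step and a higher change. Ldhb was called when replicate 4 of the tumor-free CDPs was left out, the single member call among the 8 fits that left out 1 library.

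**Figure D4:**
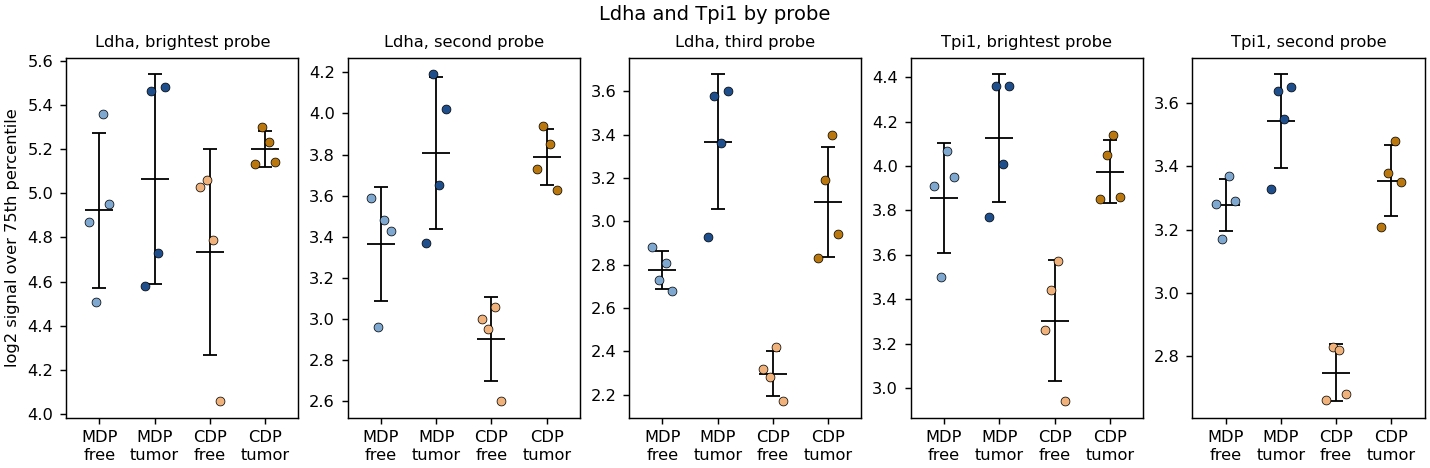
Log2 signal over the array's 75th percentile for 3 Ldha probes and 2 Tpi1 probes, 1 point per array, with group means and SD (n = 4). The axes differ between panels; for each probe the tumor-bearing CDP points lie above the tumor-free CDP points, and the brightest Ldha probe has the widest spread in tumor-free CDPs.

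Probes of Ldha, the lactate dehydrogenase subunit that favours lactate, differed in their call. The brightest (mm9, chr7:54110937-54110996) was at 5.03, 5.06, 4.79 and 4.06 in tumor-free and 5.13, 5.30, 5.23 and 5.14 in tumor-bearing CDPs, a change of 0.46 ± 0.27 (log2, SE; limma adjusted p = 0.506), or 0.24 with slide as a block. The second (chr7:54107294-54107353) was at 3.0, 2.95, 3.06 and 2.60 and at 3.73, 3.94, 3.85 and 3.63, a change of 0.88 ± 0.20 (adjusted p = 0.0365). The last (chr7:54103010-54103069) was at 2.32, 2.28, 2.42 and 2.17 and at 2.83, 3.19, 3.40 and 2.94, a change of 0.79 ± 0.17 (adjusted p = 0.0297). All 3 had the tumor-bearing CDPs above the tumor-free ones, and the 2 dimmer ones were called, with slide as a block too. Slides accounted for 65.1% of the spread of the brightest, 20.2% of the second and 7.1% of the last, and the groups for 21.5%, 72.8% and 82.3%.

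Tpi1 had a second probe (mm9, chr6:124760947-124761006) at 2.66, 2.83, 2.82 and 2.68 in tumor-free and 3.21, 3.38, 3.48 and 3.35 in tumor-bearing CDPs. That was a change of 0.60 ± 0.12 (log2, SE; limma adjusted p = 0.0232), called, and 0.57 with slide as a block, under the 1.5-fold threshold there. Its brightest probe (chr6:124761923-124761982) is the one described above. Which exon or UTR these probes read was not assigned here, and the dimmer probes are described because their call differed from the brightest one's.

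Among the carriers and hypoxia-response genes, Slc2a1 at 0.53, Slc16a3 at 0.43, Slc2a3 at -0.46 and Bnip3 at -0.34 (log2, limma adjusted p = 0.382 to 0.734) were not called in CDPs, nor was Vegfa at 0.53. With slide as a block Slc2a3 was at -0.21. Hif1a changed by 0.17, Egln1 by -0.02 and Egln3 by 0.08, and the PFKFB pair by -0.17 and -0.26, with the second Pfkfb3 probe at 0.22. The enzyme Hk3 had lower levels with tumor, 2.03, 1.81, 2.24 and 1.80 in tumor-free and 1.56, 1.72, 1.48 and 1.42 in tumor-bearing CDPs, a change of -0.43 (adjusted p = 0.38).

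In MDPs none of the members was called (limma), beside 0.0656% of all probes (18 of 27433), and 3 had an unadjusted p under 0.05, 8.82% beside 10.4% of all probes. Changes ran from -0.51 to 0.51 with 26 of 34 higher (76.5%, beside 39.5% of all probes) and a median of 0.13, beside -0.12 over all probes. The carriers, regulators and hypoxia-response genes had a median of 0.21 (13 of 15 higher) and the enzymes of 0.07 (13 of 19), and the enzymes' median was -0.03 to 0.28 over the alternative settings. The 15 that are not enzymes depended on the setting too. Without slide 1 their median was 0 (8 of 15 higher), with normexp background correction 0.08 (10 of 15) and after quantile normalisation 0.35 (12 of 15). Only Aldoa had all tumor-bearing above all tumor-free samples, 2.94% of members beside 2.71% of all probes. Slc16a3, with the levels given above, changed by 0.51 ± 0.21 (log2, SE; adjusted p = 0.452, exact permutation p = 0.0571), and by 0.33 with normexp background correction. Hk3 was at 2.76, 2.35, 2.45 and 2.70 in tumor-free and 1.96, 2.57, 1.52 and 2.28 in tumor-bearing MDPs, a change of -0.48 ± 0.20 (adjusted p = 0.457, exact p = 0.114) that was -0.21 without slide 1 and -0.29 without replicate 4 of the tumor-bearing MDPs.

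The tumor changes of CDPs and MDPs were compared directly by their difference (CDP minus MDP), for which 0.0146% of all probes (4 of 27433) were called. No member was called by limma, and only Bnip3, which takes part in mitophagy, had an unadjusted p under 0.05. It was at 0.68, 0.74, 0.29 and 0.95 in tumor-free and 1.05, 0.98, 0.73 and 0.85 in tumor-bearing MDPs, and at 1.12, 0.71, 1.01 and 0.97 in tumor-free and 0.55, 0.53, 0.44 and 0.91 in tumor-bearing CDPs. The difference was -0.58 ± 0.23 (log2, SE; 95% interval -1.08 to -0.08, limma adjusted p = 0.748). The difference of the 19 enzymes' changes was thus not shown for any of them.

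**Figure D5:**
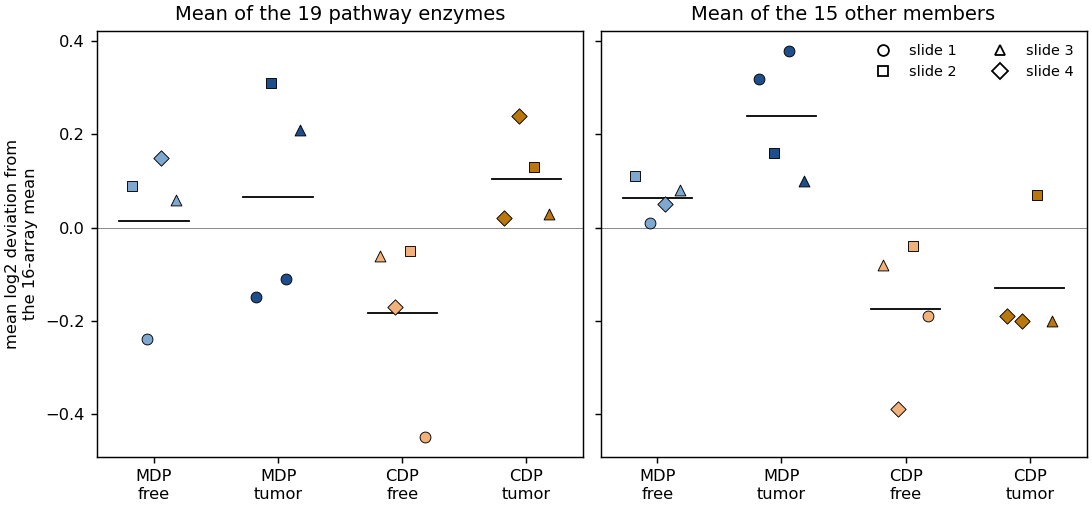
Mean log2 deviation from the 16-array mean of the 19 enzymes (left) and of the 15 other members (right), 1 point per array, with the marker shape giving the slide and a line at each group mean. The enzyme means of tumor-bearing CDPs (0.02 to 0.24) lie above those of tumor-free CDPs (-0.45 to -0.05), and the circles of slide 1 are among the lowest enzyme means in their groups.

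The enzymes' mean on each array (log2, each gene centred) shows how far samples of a group differ. It was 0.09, -0.24, 0.15 and 0.06 in tumor-free MDPs, -0.15, 0.31, -0.11 and 0.21 in tumor-bearing MDPs, -0.06, -0.17, -0.05 and -0.45 in tumor-free CDPs and 0.02, 0.24, 0.13 and 0.03 in tumor-bearing CDPs. Tumor-bearing CDPs were all above tumor-free CDPs, while the MDP groups overlapped. The lower values in tumor-bearing MDPs, replicates 2 and 4, and the lowest values of the tumor-free groups, replicate 3 of the MDPs and 5 of the CDPs, are the 4 arrays of slide 1.

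Genes around the members' pathway were called about as often as other probes. Over the 111 tested, 1.8% were called for tumor in CDPs (1.8% of all probes), 8.11% in the tumor-free step (6.1%) and 6.31% in the tumor-bearing step (7.26%), and none for tumor in MDPs. Of 23 other enzymes of glycolysis and gluconeogenesis 17 were tested: the galactose mutarotase Galm was called higher in tumor-bearing CDPs (1.06, limma adjusted p = 0.0475), the liver and red cell pyruvate kinase Pklr lower in the tumor-free step (-2.53) and Fbp1, which reverses the phosphofructokinase step, lower in the tumor-bearing step (-3.93). Of 10 tested sugar and monocarboxylate carriers the lysosomal Slc2a6 was higher in CDPs in both steps (0.77 and 0.74) and none changed with tumor. None of 9 tested genes of the pyruvate dehydrogenase complex and its regulators was called in any comparison, and 0 and 1 of the 9 were higher in CDPs in the steps. All 10 pentose phosphate genes were tested, and H6pd, the hexose-6-phosphate dehydrogenase of the endoplasmic reticulum, was called higher in tumor-bearing CDPs (0.66, adjusted p = 0.029), where 7 of 10 were higher with a median of 0.29, and 10 of 10 were higher in MDPs with a median of 0.24 and no call.

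None of 14 tested HIF subunit and oxygen-sensing genes was called in any comparison. The HIF alpha subunit Epas1 changed with tumor by 0.16 in CDPs and -0.30 in MDPs, Hif3a by 0.24 and -0.09 and their partner Arnt by 0.16 and 0.19, while Arnt2 was too dim to be tested. Of 33 tested other HIF-responsive genes none was called with tumor, with a median of 0.16 in CDPs and -0.11 in MDPs, beside 0.08 and -0.12 over all probes. In the tumor-free step Ddit4, an mTORC1 inhibitor (2.04), and Anxa2 (0.77) were called higher and the carbonic anhydrase Car12 (-3.87), Angptl4 (-1.22) and Fam162a (-0.68) lower. In the tumor-bearing step the lipid droplet gene Plin2 (0.72) was called higher and Car12 (-3.29) and the mitochondrial adenylate kinase Ak4 (-0.62) lower. Of 18 tested growth and nutrient regulators, Myc was lower in CDPs in both steps (-1.65 and -1.44, limma adjusted p = 0.00323 and 0.00819) and Txnip, which restrains glucose uptake, higher (0.81 and 0.66), and none was called with tumor.

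Markers of other cells moved with tumor and with cell type. Of 6 tested primary granule genes of neutrophil precursors 3 (Elane, Ms4a3 and Gfi1) were called higher in tumor-bearing CDPs and none in MDPs, and their summed level (linear signal over the 75th percentile) was 48.2 to 66.1 in tumor-free and 85.2 to 123 in tumor-bearing CDPs, 98.9 to 143 in tumor-free MDPs and up to 171 in tumor-bearing MDPs. Of 14 tested late granulocyte genes 2 (Lcn2 and Mmp8) were called higher in CDPs and 2 (Lcn2 and Chil3) in MDPs, with sums of 29.1 to 60.6 and 61.4 to 83.2 in CDPs and 22.0 to 33.5 and 29.2 to 49.4 in MDPs. Of these 14 genes 10 were higher with tumor in CDPs (median 0.53), but only 6 in MDPs (median -0.1). The part of these cells in the enzymes' values was not tested.

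Of 13 tested monocyte genes Vcan was called higher in tumor-bearing CDPs and none in MDPs, with sums of 35.5 to 45.1 and 43.7 to 52.2 in CDPs. Erythroid genes summed to 3.25 to 11.9 in tumor-free and 2.28 to 4.64 in tumor-bearing CDPs, with none called. Mammary epithelial markers summed to at most 1.81 on any array, 2 of 10 being well above background on none, and none was called with tumor. Lower with tumor were called 1 progenitor gene (Kit), 1 T and NK, 1 conventional dendritic, 1 plasmacytoid and 1 stromal gene in CDPs and 1 conventional dendritic gene in MDPs. Yet 5 of the 6 tested stromal and endothelial genes and 4 of the 7 T and NK genes were higher with tumor in CDPs. No megakaryocyte, mast cell or B lineage marker was called with tumor.

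Markers also moved with the members between MDPs and CDPs. Called lower in CDPs of tumor-free mice were 4 of 6 primary granule genes (median -1.35), 3 erythroid, 2 mast cell and basophil and 2 progenitor genes (Kit and Cd34), and in tumor-bearing mice 3, 2, 1 and 2. Most of the 10 progenitor genes were higher in CDPs, 8 in the tumor-free step (median 0.44) and 7 in the tumor-bearing step (median 0.38). In each step 1 of them was called higher. Of 13 monocyte genes 2 were called higher in the tumor-free step and 5 in the tumor-bearing one. Of 14 late granulocyte genes 4 and 3 were higher, with 2 and 0 lower, and of 7 conventional dendritic cell genes 2 were higher in each. Mast cell and basophil genes summed to 7.66 to 8.6 in tumor-free MDPs and 1.02 to 3.27 in tumor-free CDPs. T and NK genes summed to 14.1 to 14.9 and 2.89 to 3.18, but among them only Nkg7 was called lower, in both steps. Of the 7 tested T and NK genes 5 were higher in CDPs in each step, with medians of 0.1 and 0.37. Among them 1 was called higher in the tumor-free step. The part of these cells in the members' steps was not tested.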

How the data were processed

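Total RNA was labelled with Cy5, 1 sample per array. The deposited scanner files, written by Agilent Feature Extraction 11.5.1.1 per the file headers, hold intensity values that were already background-corrected, and the authors' value table holds log2 values that matched quantile-normalised processed signals (lowest r = 1, column medians 10.22 to 10.33, not centred). Its normalisation steps are otherwise not given in the sources used here.

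Processed signals were log2-transformed and each array's 75th percentile was subtracted. Control and outlier spots were left out and spots of a probe were averaged. Probes were tested (27433 of 39429) when 3 or more arrays of some group had them well above background. All 4 groups were fitted together in limma 3.58.1 (R 4.3.3), and calls needed a Benjamini-Hochberg adjusted p under 0.05 and over 1.5-fold. Scripts were tested on simulated data. Members called in any comparison, and the 3 with the smallest p where a tumor comparison had under 3 calls, are given in every sample, and other probes of a gene where they part from its brightest one; Pgk1 and Bnip3 were added after their values were seen. The members, the 7 lists of related genes and the 13 marker lists were chosen with earlier results of these data known.

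Alternatives covered background correction, quantile normalisation, the deposited table, probe filters, slide and replicate blocks, the groups fitted, the methods' t-test, the mean of a gene's probes and leaving out each library. Leaving out slide 1 was chosen after seeing the data. Array replicates share no stated pairing.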

Additional observations from a re-analysis of the deposited data

Results flagged for a closer look

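Over 60 sets of 4 samples examined, 4 held a sample far from the other 3, where chance alone gives about 1 in 20. The gap to the nearest sample was 0.919 of the range for Pfkfb3 in tumor-bearing MDPs, where replicate 5 was at 1.23 and the others at 1.46 to 1.48, and 0.837 for Pfkfb3 in tumor-bearing CDPs, where replicate 3 was at 0.02 and the others at 0.55 to 0.66. It was 0.947 for Egln3 in tumor-bearing MDPs, where replicate 3 was at 2.10 and the others at 1.55 to 1.58. The mean of the 15 members that are not enzymes in tumor-bearing CDPs gave 0.963, with replicate 4 at 0.07 and the others at -0.20 to -0.19. None of these samples lay on slide 1, and Pfkfb3 and Egln3 were called in the tumor-bearing step without each of their 3 samples.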

How the results depend on the processing

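Of 484 values of named members recomputed under alternatives, 444 kept their side of the threshold, 37 lost the call, 3 gained it and none changed direction. No member was called for tumor in MDPs under any alternative counted, nor for the difference, for which the t-tests and the fit of only the groups compared were not run. The tumor-bearing median step over the 34 members, 0.00 as reported, was -0.19 after quantile normalisation, -0.18 in the deposited table and without slide 1, and -0.15 with slide as a block or with the mean of a gene's probes. The median tumor change in CDPs, 0.26, was 0.11, 0.13 and 0.15 after quantile normalisation, in the deposited table and without slide 1. The median difference, 0.12, was -0.01 with slide as a block or without slide 1; the cause was not tested. Quantile normalisation moved the median of all probes from -0.12 to 0.00 for tumor in MDPs and from 0.19 to 0.00 for the tumor-bearing step.

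Members called for tumor in CDPs were 0 as reported, 2 with slide as a block and 4 by the methods' t-test at unadjusted p, and for the tumor-bearing step 7 as reported and 4 by the t-test after Benjamini-Hochberg adjustment. With the mean of a gene's probes, Tpi1 alone was called for tumor in CDPs, as higher. Leaving out 1 library gave 0 to 1 member calls and medians of 0.15 (without replicate 5 of the tumor-free CDPs) to 0.37 for tumor in CDPs, 0 calls and 0.08 to 0.16 in MDPs, and 0 calls and 0.06 to 0.22 for the difference. It gave 5 (without replicate 2 of the tumor-free MDPs) to 9 calls and -0.19 to -0.04 for the tumor-free step, and 6 to 8 calls and -0.09 to 0.08 for the tumor-bearing step.

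Counts of called probes moved more. For tumor in CDPs, 494 as reported, they were 1248 with slide as a block, 56 with only the groups compared, 2081 and 3 by the t-test before and after adjustment, and 155 to 581 without 1 library. For tumor in MDPs, 18 as reported, the same settings gave 44, 5, 1026, 1 and 1 to 46. The tumor-free step, 1673 as reported, had 2925 with slide as a block and 2993 by the unadjusted t-test. The tumor-bearing step, 1993 as reported, had 800 with only the groups compared and 1146 without slide 1.

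Same-number samples did not deviate together throughout: of 24 same-number pairs of groups, 8 had deviations correlated above 0.1 (r = -0.695 to 0.481). Pairs on the same slide had r = 0.0669 to 0.481. Most pairs lay on different slides, which carried much of the spread, so these values cannot show whether a number marks 1 experiment. The replicate block left the member calls at 0 for tumor and the difference and at 9 and 7 for the steps, and probes called for tumor in MDPs at 10.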
